A study of Mus musculus with 9 samples.

Results

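Prostaglandins are lipid signals made from arachidonic acid. Phospholipases release the acid from membranes, the cyclooxygenases Ptgs1 and Ptgs2 turn it into prostaglandin H2, and terminal synthases turn that into prostaglandin E2, prostacyclin, prostaglandin D2 or thromboxane. Prostaglandin E2 acts through the EP receptors, among them Ptger1, Ptger2 and Ptger4, until it is taken up by a transporter and oxidised by Hpgd. In mammary tumours the inducible enzyme Ptgs2 is known for its link to inflammation and spread. The genes described here are 8 of this pathway, Ptgs1, Ptgs2, Ptges, Ptgis, Hpgd, Ptger1, Ptger2 and Ptger4, taken by name. Every probe set annotated to one of them alone was read, which gave 13 of the 45101 probe sets and covered 7 of the 8 genes, out of 18194 genes measured. Ptgs1 was not analysed here, because no probe set was annotated to it alone. Where a gene had several probe sets, the one with the highest mean over the 9 arrays is its main value.

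The values come from Affymetrix arrays of tumours grown in female BALB/c mice aged 7 to 9 weeks. Each mouse received 1000000 viable cells of the mouse mammary carcinoma line 67NR, 66cl4 or 4T1 in a mammary gland on the right side, and its tumour was taken on day 15. All cells carried the label CMVLUC (67NR/CMVLUC, 66cl4/CMVLUC and 4T1/CMVLUC), so there was no tumour without it. Tumour areas were cut out by laser capture and 1 array was run per mouse, 3 mice per line. Each group is 1 cell line grown in several mice, so its spread is that between mice and not between separate tumour cell lines, and no normal gland was compared. Values are log2 signals, and a difference of 1 is a doubling.

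Arrays were alike in level, with medians of 5.51 to 5.58. The highest of 27 bacterial control probe sets was 4.83 to 5.08 per array and served as background. Of the epithelial markers, Krt8 was above background in all 9 arrays (means of 6.74 in 67NR, 13.01 in 66cl4 and 13.48 in 4T1), while Cdh1 and Krt7 were above background in 4T1 tumours and on no array of 67NR or 66cl4. The captured areas also held RNA of other cells, since the macrophage marker Csf1r had means of 11.62 to 12.87. The 67NR arrays carry higher numbers in their scan file names than the other 6, so whatever this number stands for is tied to the line, and it was tried as a covariate. The mean signal of the hybridization controls was 10.87 to 11.47 in 67NR, 10.64 to 11.10 in 66cl4 and 10.30 to 10.72 in 4T1. The 67NR and 4T1 ranges do not overlap, so this signal is also tied to the line there. It was tried as a covariate too. In such bulk samples fewer cells of a type and less RNA per cell cannot be told apart either.

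The genes did not move as one. Ptgs2 was highest in 4T1 tumours, Ptges in 66cl4 tumours and the receptor Ptger4 in 67NR tumours. Of the 7 measured genes 6 passed the filter on dim probe sets, and a moderated F-test called Ptgs2, Ptges, Ptgis and Ptger4 different among the 3 lines, 4 of 6, beside 56.6% of all 13410 genes tested. Between 4T1 and 67NR, 1 of the 6 was higher in 4T1 (background of all genes 19.4%) and 2 were lower (20.5%). Between 66cl4 and 67NR, 2 were higher in 66cl4 (20.0%) and 1 was lower (16.0%). Between 4T1 and 66cl4, 1 was higher in 4T1 (17.9%) and 1 was lower (23.4%). Counts this small beside such shares do not set the 6 genes apart from the rest. The median difference over the 6 genes was 0.07 for 4T1 against 67NR, 0.61 for 66cl4 against 67NR and -0.23 for 4T1 against 66cl4, beside -0.03, 0.01 and -0.03 over all genes tested. The comparisons share arrays pairwise and are not independent.

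**Figure D1:**
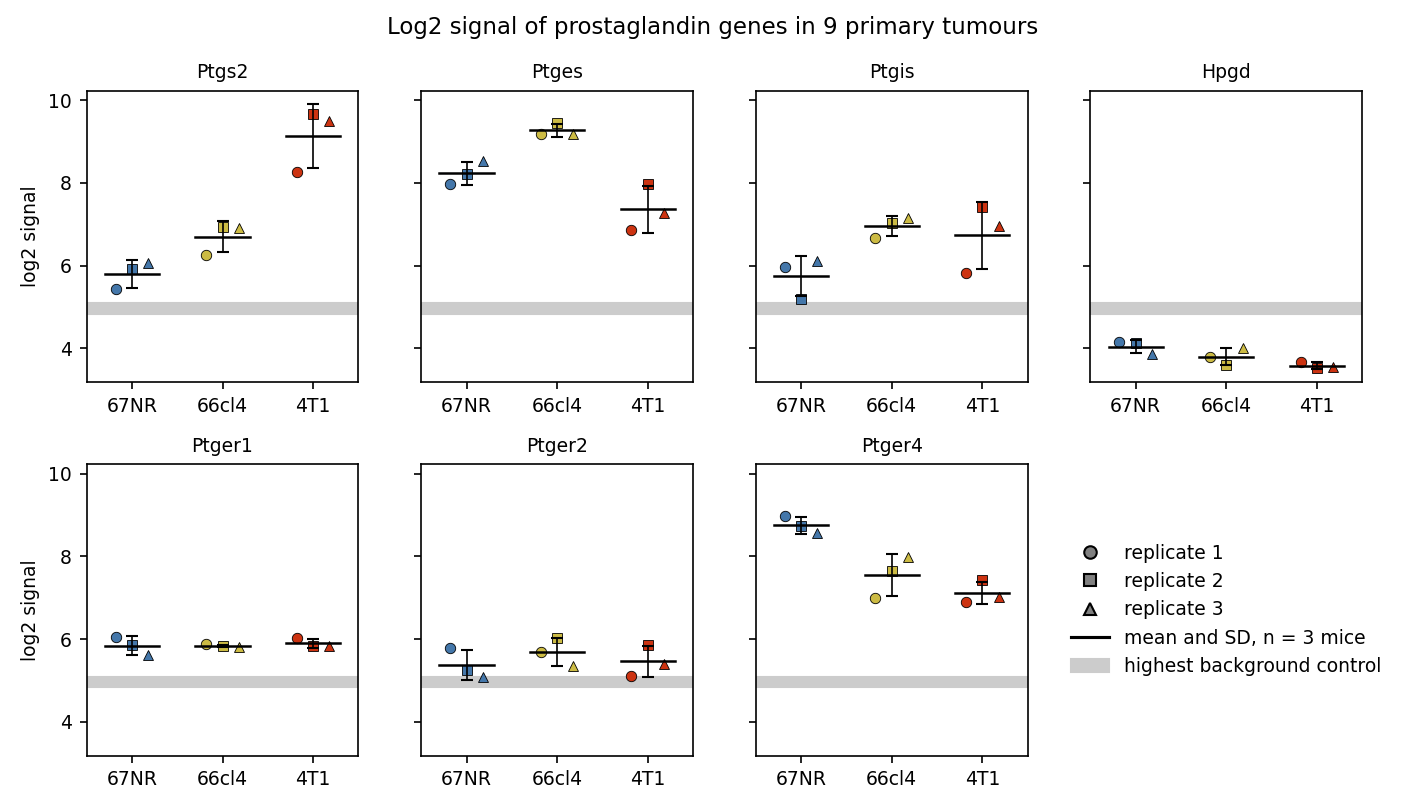
Log2 signal of the 7 measured genes in each of the 9 arrays, by tumour line, with the mean and SD of 3 mice as lines and the range of the highest background control as a grey band. The 4T1 values of Ptgs2 lie at 8.26 to 9.68, above all others, the 67NR values of Ptger4 at 8.56 to 8.97 lie above all others, and Hpgd lies below the band throughout.

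Ptgs2, the inducible cyclooxygenase that commits arachidonic acid to prostaglandins, showed the widest change. Its log2 signals were 5.43, 5.90 and 6.06 in 67NR tumours (5.80 ± 0.33, SD, n = 3). They were 6.26, 6.94 and 6.90 in 66cl4 tumours (6.70 ± 0.38) and 8.26, 9.68 and 9.49 in 4T1 tumours (9.14 ± 0.78). All 3 lines were apart from each other, with no overlap of any 2 lines. The 4T1 level was 3.35 above 67NR on the log2 scale (SE 0.35, 95% interval 2.56 to 4.14, a 10.2-fold difference, limma adjusted p = 6.47e-05). It was 2.45 above 66cl4 (SE 0.35, 5.45-fold, adjusted p = 0.000454). The 66cl4 level did not pass the test against 67NR, with a difference of 0.90 (95% interval 0.11 to 1.69, adjusted p = 0.0741). That value passed when only the 2 lines were fitted (adjusted p = 0.0151) and with the hybridization signal as a covariate (1.36, adjusted p = 0.0132). The other Ptgs2 probe set gave the same order, with differences of 2.67 for 4T1 against 67NR, 2.05 for 4T1 against 66cl4 and 0.61 for 66cl4 against 67NR (the last at adjusted p = 0.206).

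Promoter windows from RefSeq, build GRCm38.p6, are shown for the genes with the clearest differences, because the members moved in different directions and their starts can be compared. Each runs from 250 bases before to 50 after the annotated start of transcription. Capitals mark matches on either strand to 7 short motifs, namely the TATA box (TATAAA), the start of a cAMP response element (TGACG), the AP-1 site (TGANTCA), the E-box (CACGTG), the CCAAT box, the GC box (GGGCGG) and a loose C/EBP site (TTGCNNAA). The window of Ptgs2 lies at chr1:150099781-150100080 on the plus strand, that of Ptges at chr2:30903248-30903547 on the minus strand and that of Ptger4 at chr15:5244138-5244437 on the minus strand.
Ptgs2: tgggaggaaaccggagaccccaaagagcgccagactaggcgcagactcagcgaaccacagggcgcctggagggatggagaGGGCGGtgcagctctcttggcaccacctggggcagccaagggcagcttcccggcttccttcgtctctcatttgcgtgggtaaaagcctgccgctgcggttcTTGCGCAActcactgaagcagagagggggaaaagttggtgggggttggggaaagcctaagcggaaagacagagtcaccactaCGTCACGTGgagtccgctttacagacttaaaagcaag
Ptges: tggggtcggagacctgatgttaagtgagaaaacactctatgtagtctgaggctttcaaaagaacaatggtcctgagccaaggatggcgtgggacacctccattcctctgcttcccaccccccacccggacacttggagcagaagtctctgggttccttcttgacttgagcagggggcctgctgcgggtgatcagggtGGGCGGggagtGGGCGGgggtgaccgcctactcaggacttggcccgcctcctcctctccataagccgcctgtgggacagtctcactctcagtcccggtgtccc
Ptger4: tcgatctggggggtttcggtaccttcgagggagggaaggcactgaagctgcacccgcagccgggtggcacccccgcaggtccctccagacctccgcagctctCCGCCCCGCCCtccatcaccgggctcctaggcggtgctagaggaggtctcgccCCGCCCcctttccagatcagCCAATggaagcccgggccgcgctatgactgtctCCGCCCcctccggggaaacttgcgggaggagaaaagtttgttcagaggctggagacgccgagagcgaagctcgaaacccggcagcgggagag

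The Ptgs2 window held 1 TTGCNNAA match, a palindrome at position -69, a GGGCGG at -170, and TGACG, part of a cAMP response element, on the reverse strand at position 14 that overlaps a CACGTG at 17. Of all 32851 windows of this length, 10.8% held TTGCNNAA, 35.7% GGGCGG, 20.8% TGACG and 7.15% CACGTG. The Ptges window held GGGCGG at -53 and -42 and no other of the motifs marked by capitals. The Ptger4 window held 4 GGGCGG matches, all on the reverse strand at -148, -143, -95 and -42, and CCAAT at -75, which 37.4% of all windows held. None of the 3 windows held TATAAA (13.6% of all windows) or TGANTCA (7.81%). GC content was 59.3% for Ptgs2 and 67.0% for Ptger4, beside a median of 52.7% over all windows. A match describes the letters only. Windows were at hand for 6 of the 8 genes.

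Ptges, microsomal prostaglandin E synthase, turns prostaglandin H2 into prostaglandin E2 and is commonly paired with Ptgs2, but here its order over the lines was another one. It had log2 signals of 7.97, 8.21 and 8.52 in 67NR (8.23 ± 0.28, SD, n = 3), 9.18, 9.46 and 9.19 in 66cl4 (9.28 ± 0.16) and 6.85, 7.97 and 7.27 in 4T1 tumours (7.36 ± 0.56). All 66cl4 values lay above all others, while the highest 4T1 value overlapped the lowest 67NR value. The 66cl4 level was 1.04 above 67NR (SE 0.26, 2.06-fold, limma adjusted p = 0.0103) and the 4T1 level was 1.92 below 66cl4 (a difference of -1.92, SE 0.26, 3.77-fold, adjusted p = 0.00028). Against 67NR the 4T1 difference was -0.87 (SE 0.26, adjusted p = 0.0214). This last call ended without 67NR replicate 2 (-0.88, adjusted p = 0.0553), 67NR replicate 3 (-0.73, 0.0825), 4T1 replicate 1 (-0.62, 0.0621) or 4T1 replicate 3 (-0.82, 0.0584), and with a covariate for the scan file number (-0.50, 0.444) or the hybridization signal (-0.13, 0.834). In the other 2 Ptges probe sets it was -0.25 (adjusted p = 0.276) and -0.45 (0.116), whereas the 66cl4 rise over 67NR was 1.41 and 1.19 and the 4T1 difference from 66cl4 -1.66 and -1.64, all 4 of them called.

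Ptgis, which makes prostacyclin, was measured by 1 probe set. Its log2 signals were 5.95, 5.18 and 6.11 in 67NR (5.75 ± 0.50, SD, n = 3), 6.68, 7.02 and 7.16 in 66cl4 (6.95 ± 0.25) and 5.82, 7.42 and 6.95 in 4T1 tumours (6.73 ± 0.82). All 66cl4 values lay above all 67NR values, and 4T1 replicate 1 lay among the 67NR values. The 66cl4 level was 1.21 above 67NR (SE 0.38, 2.31-fold, limma adjusted p = 0.0314). That call ended without 67NR replicate 1 (1.31, adjusted p = 0.0556), 67NR replicate 2 (0.92, 0.116), 66cl4 replicate 2 (1.17, 0.0816) or 66cl4 replicate 3 (1.10, 0.0903), and with a scan number covariate (1.42, 0.0797). The 4T1 difference from 67NR was 0.98 (95% interval 0.14 to 1.83, adjusted p = 0.0634) and became 1.44 (adjusted p = 0.0036) without 4T1 replicate 1. Between 4T1 and 66cl4 it was -0.22 (95% interval -1.07 to 0.62).

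Hpgd, the dehydrogenase that inactivates prostaglandin E2, was not above background on any array in either of its 2 probe sets, so it was not tested and no fold is given.

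Ptger4, the EP4 receptor that signals through cAMP, was the receptor that differed between lines. It had log2 signals of 8.97, 8.75 and 8.56 in 67NR (8.76 ± 0.21, SD, n = 3), 7.00, 7.65 and 7.99 in 66cl4 (7.55 ± 0.50) and 6.91, 7.42 and 7.02 in 4T1 tumours (7.12 ± 0.27). Every 67NR value lay above every other value, while 66cl4 and 4T1 overlapped. The difference from 67NR was -1.64 in 4T1 (SE 0.24, 3.13-fold lower, limma adjusted p = 0.000507) and -1.21 in 66cl4 (SE 0.24, 2.31-fold lower, adjusted p = 0.00348). Between 4T1 and 66cl4 it was -0.43 (95% interval -0.97 to 0.11, adjusted p = 0.183) and became -0.71 (0.0222) without 66cl4 replicate 1. A scan number covariate ended both calls against 67NR (-0.94, adjusted p = 0.0782, in 4T1 and -0.75, 0.0579, in 66cl4), and one for the hybridization signal ended that of 4T1 (-1.24, 0.0696). A second Ptger4 probe set was below background on every array and was not tested.

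Ptger1, the EP1 receptor that raises calcium, and Ptger2, the EP2 receptor that raises cAMP, did not pass any test. Ptger1 signals lay between 5.61 and 6.06 over the 9 arrays, and its differences were 0.06 for 4T1 against 67NR (95% interval -0.23 to 0.34), -0.01 for 66cl4 against 67NR (-0.29 to 0.27) and 0.06 for 4T1 against 66cl4 (-0.22 to 0.34). Ptger2 signals lay between 5.09 and 6.04, and its differences were 0.09 (95% interval -0.47 to 0.64), 0.32 (-0.24 to 0.87) and -0.23 (-0.78 to 0.32) in the same order. Doublings of signal lie outside all 6 intervals. Both genes lie near the background of 4.83 to 5.08, so a doubling of their RNA is not excluded. Another Ptger1 probe set was below background on every array and was not tested.

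**Figure D2:**
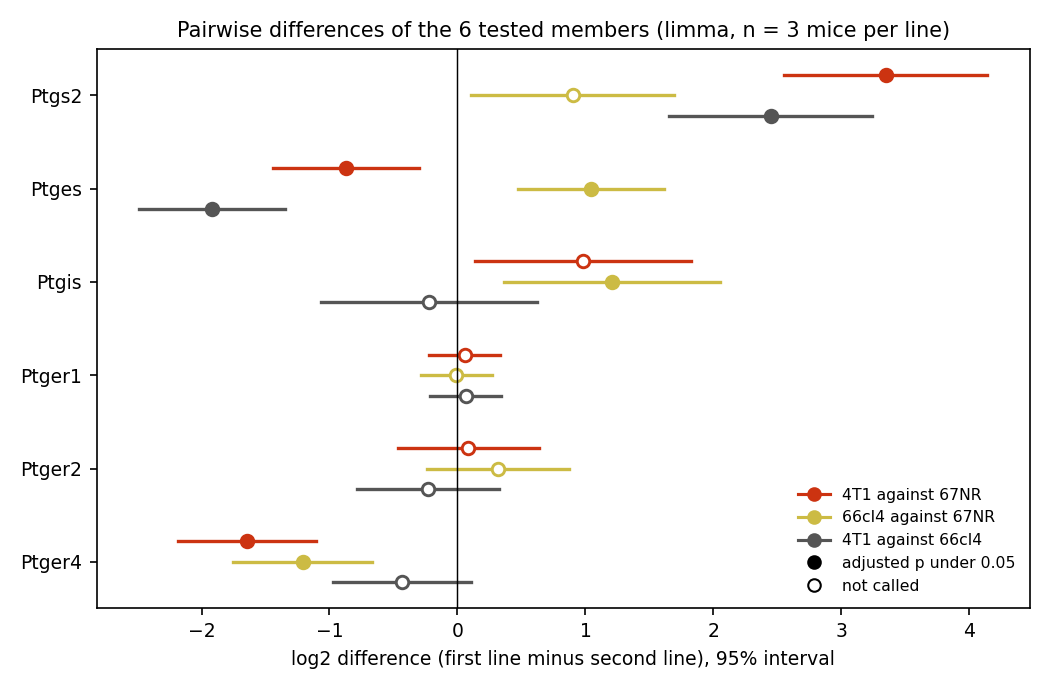
Log2 differences of the 6 tested genes in the 3 comparisons of lines, with 95% intervals from the fit over 3 mice per line, filled where the adjusted p was under 0.05. Ptgs2 at 3.35 for 4T1 against 67NR lies farthest above 0, and Ptges at -1.92 for 4T1 against 66cl4 farthest below it.

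Counted by probe set, 9 of the 13 passed the filter. Of these, 4 were called between 4T1 and 67NR (32.8% of all tested probe sets), 5 between 66cl4 and 67NR (27.8%) and 5 between 4T1 and 66cl4 (33.2%). Mice of a line differed too. Of the 6 genes above background, 4T1 replicate 1 was the lowest of its line for 5 and 4T1 replicate 2 the highest for 5. The fibroblast markers summed to a linear signal of 5810 in 4T1 replicate 1, 15874 in replicate 2 and 8407 in replicate 3, and their part in these differences was not tested. The median SD of all tested genes was 0.18 in 4T1, 0.13 in 67NR and 0.13 in 66cl4.

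Upstream of the cyclooxygenases, the enzymes that free arachidonic acid moved in both directions. Over 20 tested genes of the pathway that are not among the 8 (27 listed, 24 measured), 4 were higher and 9 lower in 4T1 than in 67NR, 5 higher and 6 lower in 66cl4 than in 67NR, and 2 higher and 6 lower in 4T1 than in 66cl4. Over all 13410 genes tested, the shares in the same order were 19.4% higher and 20.5% lower, 20.0% and 16.0%, and 17.9% and 23.4%. The median differences of the 20 genes were -0.38, -0.12 and -0.05. Pla2g4a, the cytosolic phospholipase A2 that feeds Ptgs2, was 0.58 above 67NR in 4T1 (SE 0.11, limma adjusted p = 0.00215) and 0.58 above it in 66cl4 (adjusted p = 0.00246). Pla2g5, a secreted phospholipase, had signals of 7.51, 7.93 and 8.12 in 67NR and 7.30, 5.91 and 6.47 in 66cl4, and in 4T1 it stayed at background on every array. It was at least 7.39-fold lower in 4T1 than in 67NR (adjusted p = 6.64e-06) and at least 3.01-fold lower than in 66cl4 (adjusted p = 6.93e-05), bounds that rest on the control probe sets. Mgll, the lipase that frees arachidonic acid from 2-arachidonoylglycerol in brain, had a difference from 67NR of -2.60 in 4T1 (SE 0.23, adjusted p = 2.3e-05) and -2.60 in 66cl4 (SE 0.23, adjusted p = 3.37e-05). Of its other probe sets 2 gave differences of -2.60 and -2.45 for 4T1 against 67NR, and the last gave -0.11 (adjusted p = 0.613). The Pla2g6 difference from 67NR was -0.62 in 4T1 and -0.95 in 66cl4, and with the mean of its probe sets the first was -0.20 (adjusted p = 0.105).

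**Figure D3:**
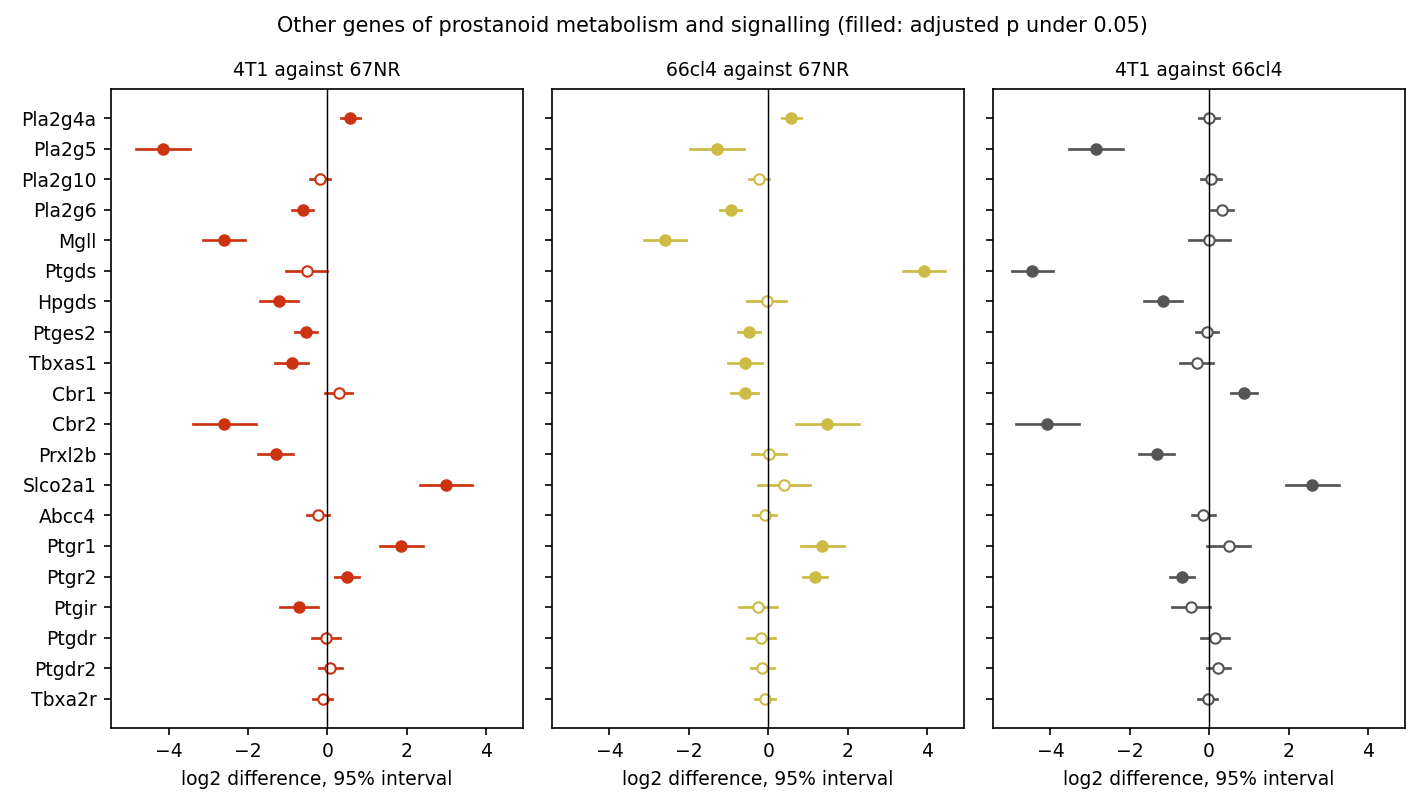
Log2 differences with 95% intervals between tumour lines for the other 20 tested genes of prostanoid synthesis, breakdown, transport and reception, filled where the adjusted p was under 0.05. Ptgds at 3.93 for 66cl4 against 67NR and Slco2a1 at 3.00 for 4T1 against 67NR lie farthest above 0, and the 4T1 points of Pla2g5 rest on signals at background.

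Other terminal enzymes differed between lines too, in more than 1 order. Ptgds, a prostaglandin D synthase, had signals of 7.11, 7.02 and 7.11 in 67NR, 10.37, 11.22 and 11.42 in 66cl4 and 6.46, 6.43 and 6.78 in 4T1 tumours. It was 3.93 higher in 66cl4 than in 67NR (SE 0.24, limma adjusted p = 3.38e-06), and the 4T1 difference from 66cl4 was -4.45 (SE 0.24, adjusted p = 6.68e-07). The other Ptgds probe set was below background on every array of 67NR and 4T1. By that probe set 66cl4 was at least 43.6-fold above 67NR and at least 42.7-fold above 4T1. Hpgds, the hematopoietic prostaglandin D synthase, had a difference of -1.22 for 4T1 against 67NR and -1.17 against 66cl4 (adjusted p = 0.00155 and 0.00188), and the first ended with either covariate (-0.54 and -0.83). Ptges2, Tbxas1 (thromboxane synthase) and Prxl2b (a prostamide and prostaglandin F synthase) had differences of -0.54, -0.90 and -1.30 for 4T1 against 67NR, all called, and all 3 calls ended with either covariate. For 66cl4 against 67NR the differences of these 3 genes were -0.48, -0.59 and 0.02. Cbr2 fell by 4.08 on the log2 scale from 66cl4 to 4T1 (adjusted p = 1.75e-05). Its difference from 67NR was 1.49 in 66cl4 and -2.59 in 4T1. The difference of Cbr1 was -0.59 for 66cl4 against 67NR and 0.88 for 4T1 against 66cl4.

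Of the genes that clear prostaglandins, Slco2a1, the transporter that takes them into cells, was highest in 4T1 tumours, as Ptgs2 was. Its signals were 8.20, 8.65 and 8.56 in 67NR, 9.04, 9.47 and 8.08 in 66cl4 and 11.57, 11.37 and 11.45 in 4T1 tumours. It was 3.00 higher in 4T1 than in 67NR (SE 0.29, limma adjusted p = 4.04e-05) and 2.60 higher than in 66cl4 (SE 0.29, adjusted p = 9.93e-05). Between 66cl4 and 67NR it was 0.39 (95% interval -0.26 to 1.05), and 0.79 (adjusted p = 0.0101) without 66cl4 replicate 3. The other Slco2a1 probe sets gave -0.09, -0.03 and 0.24 for 66cl4 against 67NR, none of them called. For 4T1 against 67NR they gave 2.32, 3.27 and 3.34. Ptgr1, a reductase of prostaglandin and leukotriene breakdown, was 1.86 above 67NR in 4T1 (adjusted p = 0.000249) and 1.37 above it in 66cl4 (0.00185). Ptgr2, another prostaglandin reductase, was highest in 66cl4, 1.17 above 67NR (limma adjusted p = 0.000148). In 4T1 it was 0.50 above 67NR (0.0149) and had a difference of -0.67 from 66cl4 (0.003). Its other tested probe sets gave 1.04, 0.05, 1.24 and 1.33 for 66cl4 against 67NR. Among the other prostanoid receptors, the prostacyclin receptor Ptgir had a difference of -0.72 for 4T1 against 67NR (adjusted p = 0.0232), which ended without any 1 of the 67NR mice or without 4T1 replicate 1 (adjusted p of 0.0565 to 0.0638). Ptgdr, Ptgdr2 and Tbxa2r passed no test, and Ptger3 and Ptgfr were below background.

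The inducers and regulators of Ptgs2 were followed as a list of 20 genes, of which 19 were tested. Between 4T1 and 67NR 6 were higher and 2 lower, between 66cl4 and 67NR 2 were higher and 2 lower, and between 4T1 and 66cl4 8 were higher and 4 lower, with median differences of 0.18, 0.03 and 0.12. All genes tested had 19.4% higher and 20.5% lower, 20.0% and 16.0%, and 17.9% and 23.4% in that order. Il1a, a cytokine that induces Ptgs2, had signals of 6.00, 7.95 and 7.79 in 4T1 tumours, and in the other 2 lines it stayed at background on every array. It was at least 4.95-fold higher in 4T1 than in 67NR (limma adjusted p = 0.000347) and at least 5.06-fold higher than in 66cl4 (adjusted p = 0.000278). Il1b had signals of 7.86, 8.97 and 8.43 in 67NR, 7.19, 8.06 and 7.68 in 66cl4 and 9.76, 10.09 and 10.24 in 4T1 tumours, a difference of 1.61 from 67NR (SE 0.29, adjusted p = 0.00172) and of 2.39 from 66cl4 (SE 0.29, adjusted p = 0.000157). Il1r1, the receptor of both cytokines, had a difference of 1.61 for 4T1 against 66cl4 (adjusted p = 0.000491) and of 0.89 against 67NR (0.0133), the latter ending without 67NR replicate 2 (0.79, 0.0543) and with the hybridization signal as a covariate (0.29, 0.62). Nr3c1, the glucocorticoid receptor, which represses Ptgs2, had a difference of -0.96 for 4T1 against 67NR (adjusted p = 0.000363) and of -0.03 for 66cl4 against 67NR (0.888). Celf2, an RNA-binding protein known to act on Ptgs2 mRNA, was highest in 66cl4, 1.15 above 67NR (adjusted p = 0.00144), and its 4T1 difference from 66cl4 was -2.01 (adjusted p = 3.82e-05).

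**Figure D4:**
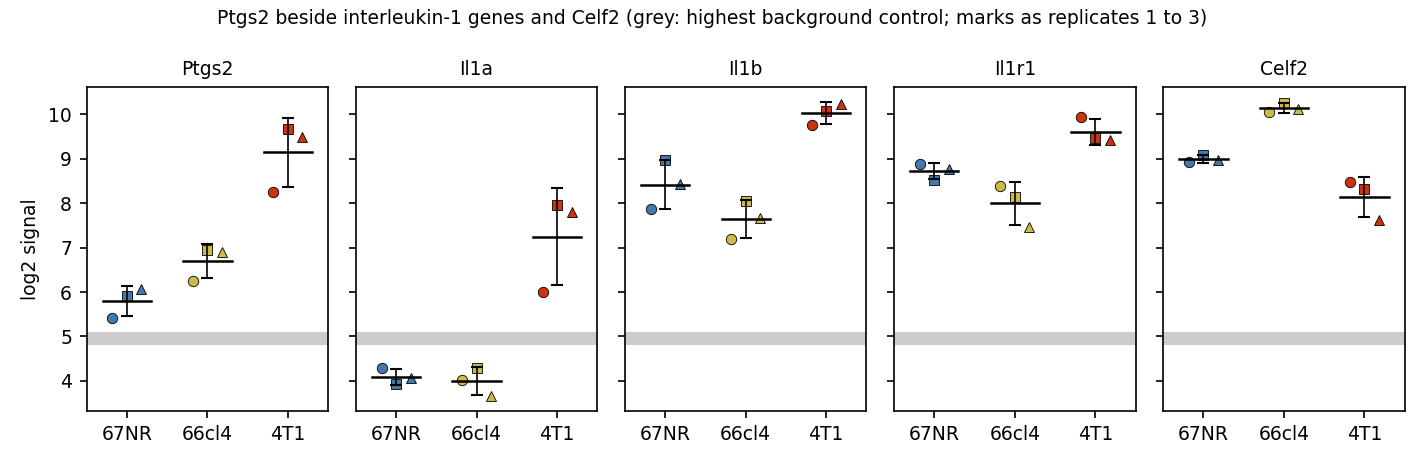
Log2 signal of Ptgs2, Il1a, Il1b, Il1r1 and Celf2 in each of the 9 arrays, by tumour line, with the mean and SD of 3 mice as lines, replicates as circle, square and triangle, and the range of the highest background control as a grey band. Il1a lies below the band in 67NR and 66cl4 and at 6.00 to 7.95 in 4T1, where Ptgs2 lies at 8.26 to 9.68.

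Markers of other cells also differed between the lines, and their part in the differences of the prostaglandin genes was not tested. Among all genes tested, 19.4% were higher and 20.5% lower in 4T1 than in 67NR. The shares were 20.0% and 16.0% for 66cl4 against 67NR, and 17.9% and 23.4% for 4T1 against 66cl4. Of the 9 mast cell markers, 8 were lower in 4T1 and 9 in 66cl4 than in 67NR, and their summed linear signal was 16933 to 23853 in 67NR, 483 to 654 in 66cl4 and 386 to 563 in 4T1. The 9 endothelial markers summed to 3964 to 5103, 1063 to 1316 and 1503 to 1756. In each of the other lines 8 of 9 were lower than in 67NR and 1 was higher. Macrophage markers summed to 28048 to 34289 in 67NR, 30738 to 41105 in 66cl4 and 14726 to 15603 in 4T1, with 8 of 9 lower in 4T1 than in 67NR and 8 of 9 lower in 4T1 than in 66cl4. Between 66cl4 and 67NR 4 of the 9 were higher in 66cl4 and 1 was lower, beside the higher Ptges, Ptgds and Cbr2 of that line. Cd14 was 1.69 higher in 66cl4 than in 67NR (limma adjusted p = 0.000898) and Cd68 0.61 higher (0.00341), while the calls of Mrc1 (0.79) and Cd163 (1.97) ended without any 1 of the 67NR mice. Of the 6 neutrophil markers tested 3 were higher in 4T1 than in 67NR. Of the 7 epithelial markers 6 were higher in 4T1 and 1 in 66cl4 than in 67NR. Fibroblast markers split, with 3 higher and 3 lower in 4T1 than in 67NR, and pericyte markers had 2 higher and 4 lower. T and NK cell markers had 3 of 7 lower in 4T1 and 7 of 7 lower in 66cl4, and platelet markers 1 of 5 lower in 4T1. None of the first 3 markers of any list was below background on all arrays of a line.

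**Figure D5:**
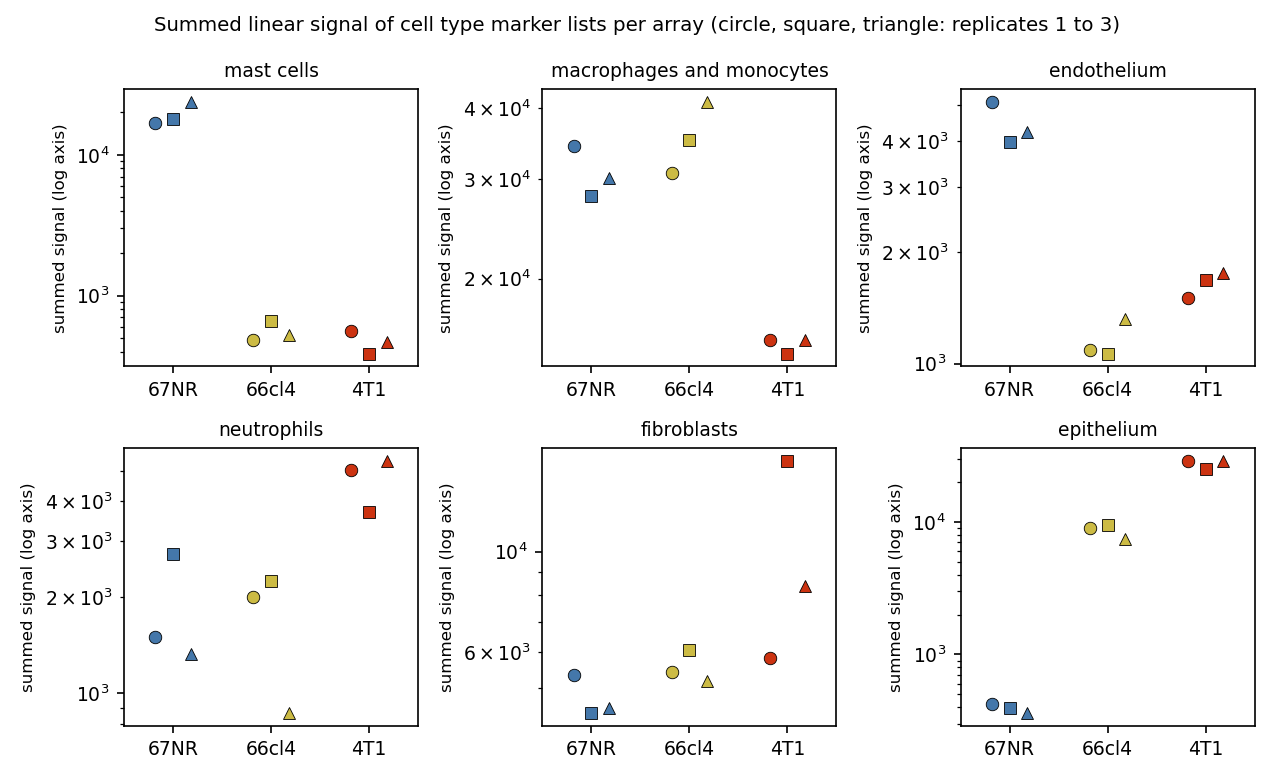
Summed linear signal of 6 of the lists of cell type markers in each of the 9 arrays on log axes that differ between panels, by tumour line, with replicates as circle, square and triangle. The mast cell sum of 16933 to 23853 in 67NR stands above the 386 to 654 of the other lines.

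Genes whose deviations from their own mean were closest to those of a member over the 9 arrays were found by the root mean square of the difference. For Ptgs2 these were Cpxm2 (0.34), Usp43 (0.45) and Fst (0.46), where the deviations of Ptgs2 itself had a root mean square of 1.48. Zfp677 (0.19), Tceal8 (0.22) and Calml4 (0.22) were nearest to Ptges (0.84). Gla (0.28), Ncam1 (0.33) and Hcfc1r1 (0.33) were nearest to Ptgis (0.70). Adgre4 (0.19), Ms4a7 (0.23) and Galnt4 (0.24) were nearest to Ptger4 (0.75). Some of these genes had means below background. Cpxm2 had 4.14 in 67NR and 4.61 in 66cl4. Calml4 had 4.79 in 67NR and 4.09 in 4T1, and Adgre4 had 4.17 in 66cl4 and 3.83 in 4T1. Their likeness rests in part on background signal. All of these are descriptions of likeness over the same arrays.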

How the data were processed

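The deposited file gives a log2 signal for each probe set on each array. Nothing states its scale, and log2 follows from the range of 2.42 to 14.80. Affymetrix labelling is per the labels' protocols, and the summarisation and normalization are not given in the sources used here. Values were used as deposited, since the 75th percentiles differed by 0.155. Arrays have no read depth, and 3 per line limit the precision. Symbols came from the platform annotation, updated through Entrez identifiers to RefSeq (34754 of 34958 probe sets with 1 gene; 932 had several and 9211 none). Testing needed a value over the array's 40th percentile on 3 or more arrays. The lines were fitted together by limma (version 3.58.1, R version 4.3.3) with lmFit and eBayes and without covariates. The fit had 6 residual degrees of freedom and a prior worth 3.63, and tests were two-sided and called at a Benjamini-Hochberg adjusted p under 0.05 over all genes tested. The script was tested on simulated data. An exact permutation test of 3 against 3 cannot go below 0.1. A gene at or below the highest bacterial control on all arrays of a line got a bound from that control. The members and lists were chosen with earlier results of these data known. All members, all other prostanoid genes, and of other lists the 4 smallest p-values per comparison and the first 3 markers could be named. Alternatives covered probe set choice, quantile normalization, the filter, the samples fitted, a replicate block, scan file number, hybridization signal, an intensity trend and leaving out each mouse.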

Additional observations from a re-analysis of the deposited data

How the results depend on the processing

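Under a covariate for the scan file number, the members called fell to 1 for 4T1 against 67NR, 1 for 66cl4 against 67NR and 2 among the 3 lines, the other prostanoid genes to 7 and all genes to 2661 of 5348 (2401 shared) for 4T1 against 67NR. For 66cl4 against 67NR all genes fell less, to 3782 of 4839 (3315 shared). No count over all genes is given among the 3 lines. With the hybridization signal, members, other prostanoid genes and all genes called were 1, 7 and 2151 (2088 shared) for 4T1 against 67NR. Both covariates differ between 67NR and 4T1 arrays without overlap, so their part and that of the line cannot be told apart. The cause was not tested. No result reversed under any alternative run. Of the results of single members 230 kept their side of the threshold, 14 lost a call and 5 gained one. The replicate numbers do not pair the mice (correlations of deviations from -0.115 to 0.159). Under the replicate block the members called were 3, 4 and 2 in the 3 comparisons, beside 5058, 4504 and 5180 of all 13410 genes, and Ptgs2 in 66cl4 against 67NR was called (adjusted p = 0.00668). With no filter 4 members of 7 were called between 4T1 and 67NR, beside 5439 of 18194 genes. The added call was that of Hpgd, which was not above background on any array in either probe set. It is not read as a difference. Counts over the members' probe sets were added after seeing the data. Depth does not apply to arrays, and signals near background limit Hpgd, Ptger1 and Ptger2.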

Other observations

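The leukotriene branch, which draws on the same arachidonic acid, held genes that were higher in 66cl4 tumours beside others that were not. Of 8 tested genes (13 listed, 12 measured), 4 were higher and 1 lower in 66cl4 than in 67NR, 3 were lower and 0 higher in 4T1 than in 67NR by limma, and 4 were lower in 4T1 than in 66cl4. The shares over all genes tested were 20.0% higher and 16.0% lower, 20.5% lower and 19.4% higher, and 23.4% lower, in that order. Alox5, the 5-lipoxygenase, was 0.96 above 67NR in 66cl4 (adjusted p = 0.0056) and had a difference of -1.20 in 4T1 (0.00139). Its partner Alox5ap had differences of 1.33 (0.000174) and -0.85 (0.00206). Ltc4s, leukotriene C4 synthase, was 2.36 higher in 66cl4 than in 67NR (adjusted p = 0.00111), and Cysltr1, a receptor of cysteinyl leukotrienes, was 0.95 higher (0.0109). Lta4h, which makes leukotriene B4, went the other way, with a difference from 67NR of -0.36 in 66cl4 (0.0166) and -1.03 in 4T1 (3.22e-05), and the first ended without 67NR replicate 2 (0.0563) or 66cl4 replicate 2 (0.057). Aloxe3, Ltb4r1 and Cysltr2 passed no test.

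Genes that cAMP induces, a class that EP2 and EP4 signalling can raise, were counted over 12 tested genes (14 listed, 13 measured). Of these 1 was higher and 5 lower in 4T1 than in 67NR, 1 higher and 3 lower in 66cl4 than in 67NR, and 2 higher and 2 lower in 4T1 than in 66cl4. Among all genes tested 19.4% were higher and 20.5% lower, 20.0% and 16.0%, and 17.9% and 23.4% in that order. Dusp1, a phosphatase, had a difference of -2.23 for 4T1 against 67NR (limma adjusted p = 0.000756) and Nr4a2, a nuclear receptor, of -1.53 (0.0012). Pde4b, a cAMP phosphodiesterase, had differences from 67NR of -1.29 in 4T1 (0.00342) and -2.03 in 66cl4 (0.0003). The higher gene in 4T1 was Pde4d, another phosphodiesterase, at 0.70 above 67NR (0.0103), or 0.34 (0.109) with the mean of its probe sets. The higher gene in 66cl4 was Fos, a transcription factor, at 1.29 above 67NR (0.0256), a call that ended without 67NR replicate 1 (1.14, 0.0885), 67NR replicate 3 (1.33, 0.0591) or 66cl4 replicate 1 (0.86, 0.0721).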
